A study of Homo sapiens with 4 samples.

Results

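The dense block of chromosome 17q11 is a stretch beside the centromere of chromosome 17 in which GATA4 CUT&RUN intervals lie close together in PaTu8988S cells. Its members are the intervals of the deposited list that start from 25 Mb to under 30 Mb on chromosome 17 in build hg19. They number 329 of the 21308 intervals in the list (1.54%) and 30.6% of the 1075 on chromosome 17. The block was chosen by its number of intervals in this same list, so its density is a description and not a finding. The comparison ground was the rest of chromosome 17 without 45 to 50 Mb, which holds 460 intervals.

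PaTu8988S is an established human pancreatic adenocarcinoma line. The 4 libraries, all of 1 group, came from this line without any stated treatment, with 500000 cells and 10 ug of the anti-GATA4 antibody MAB2606 each. CUT&RUN releases the DNA around an antibody-bound protein with a tethered micrococcal nuclease and reads the fragments. A library with an untargeted antibody was not analysed here. The values are positions only, in 1 list described as common to the 4 libraries, so there is no height, no depth and no spread between libraries, and no difference below was tested. Whether the libraries came from separate cultures is not stated.

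GATA4, a DNA-binding regulator with zinc fingers that works in gut-derived tissues and the heart, recognises the short motif WGATAR, where W is A or T and R is A or G. In the pancreatic lineage it acts beside its paralogue GATA6, and both are associated with the classical, epithelial form of pancreatic cancer. Copy number and enhancer marks were not measured in these libraries.

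Band 17q11 is gene-rich. By general knowledge of build hg19, and not from these data, the densest stretch of the block roughly covers a run of genes. This run goes from SLC13A2, a dicarboxylate transporter gene, to MYO18A, an unconventional myosin gene, with both included. No interval was assigned to a gene, because an hg19 annotation was not used here. In the RefSeq order of assembly GRCh38.p14, 40 annotated genes run from the first of these names to the second, of which 24 are protein-coding and 4 are microRNA genes. Among 50 genes of band 17q11 listed by role, 21 lie in that run. They include TRAF4, an adaptor of receptor signalling in epithelia, SUPT6H, a transcription elongation factor, PHF12, a subunit of a histone deacetylase complex, and FOXN1, the thymic epithelial regulator. FLOT2 (a membrane raft protein), RAB34 (a small GTPase of ciliary trafficking), ERAL1 (a mitochondrial ribosome assembly factor), SPAG5 (a spindle protein) and ALDOC (a glycolytic aldolase) also belong to it.

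The microRNA genes MIR451A, MIR451B, MIR144 and MIR4732 follow one another between ERAL1 and FLOT2. The pair MIR144 and MIR451A is a known target of GATA1 in red-cell precursors, which is why the mature forms held in the RefSeq table are shown. No mature form of MIR451A or MIR451B was held there, so only MIR144 of the pair is shown, beside MIR4732. Capitals mark the seed, bases 2 to 8.
hsa-miR-144-3p: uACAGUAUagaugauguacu
hsa-miR-144-5p: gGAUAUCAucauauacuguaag
hsa-miR-4732-3p: gCCCUGACcuguccuguucug
hsa-miR-4732-5p: uGUAGAGCagggagcaggaagcu
No seed is shared among these 4. Whether an interval lies at these microRNA genes was not tested.

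The promoters of these genes were searched for the GATA letters, and the shares were not tested against each other. RefSeq promoter windows, which run from 250 bases before a gene's start to 50 after it, were found for 22 of the 24 protein-coding genes. AGATAA and TGATAA, or their forms that end in G (AGATAG and TGATAG), stood on either strand in 2 of the 22 (9.09%), those of SDF2, an endoplasmic reticulum protein, and PROCA1. The share was 19.95% of 802 other protein-coding genes of chromosome 17 and 19.7% of 15842 protein-coding genes in the table, and 25.52% of all 27305 promoters in it. The median G+C content was 65.8% for the 22 promoters and 62.7% for all protein-coding genes. With AGATAA and TGATAA alone, 1 of the 22 (4.55%) held a match, against 12.02% of all protein-coding genes. The matches with 27 bases on either side are given 5′ to 3′ on the gene's strand, with the match in capitals, because they are the only ones of the 22.
SDF2: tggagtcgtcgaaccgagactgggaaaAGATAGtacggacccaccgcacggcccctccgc
PROCA1: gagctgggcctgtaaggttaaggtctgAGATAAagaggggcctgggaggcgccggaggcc
A match is a string of letters and does not show a bound site. The sequence under the intervals themselves was not used here.

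The block held 65.8 intervals per Mb, against 6.53 per Mb over the 70.4 Mb of comparison ground, a ratio of 10.1. It was the fullest of the 5 Mb windows of chromosome 17 and ranked 7 among the 593 windows of the 22 autosomes and chromosome X that held an interval. The 15 windows of the comparison ground held between 2 and 126 intervals, with a median of 14. The lowest, from 80 to 85 Mb, is only a part window, since the ground counted ends at the last interval. The window from 20 to 25 Mb, with 14, holds most of the centromere gap described below. The windows just beyond the block were the fullest of the 15, with 116 intervals between 30 and 35 Mb and 126 between 35 and 40 Mb. Against those 10 Mb alone, the block's density was 2.72 times as high. The window left out, from 45 to 50 Mb, held 286, and keeping it in the comparison lowered the ratio to 6.65.

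**Figure D1:**
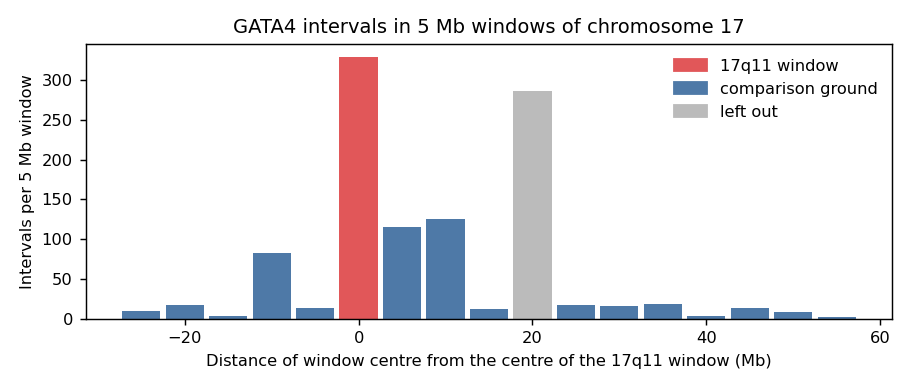
Number of intervals (y axis) in each 5 Mb window of chromosome 17, placed by the distance of its centre from that of the 17q11 window in Mb (x axis); red is the 17q11 window, blue the comparison ground and grey the window left out. The 17q11 window holds 329 intervals and the fullest comparison window 126.

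Before the first member lay a stretch of 3.00 Mb without an interval. It ran from the end of the nearest interval outside the block (22247755 to 22262564, 14809 bp wide and 14th widest of the list) to the first member (25263011 to 25268282). By general knowledge this is the unsequenced centromere gap of the hg19 assembly. Its part before 25 Mb counts in the length of the comparison ground, and its part after 25 Mb in that of the block. Both densities are lower for it. On the far side the last member ran from 29851744 to 29852643 (899 bp), and the next interval from 30048956 to 30049480 (524 bp). The limit at 30 Mb therefore falls in a gap of 196.3 kb, and that next interval stood alone, 1.19 Mb before the following one.

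Within the block the intervals were unevenly spread. Of its 50 bins of 100 kb, 9 were empty, 18 held 1 to 4 intervals, and 10 held 10 or more. Those 10 bins held 200 of the members (60.8%). The empty bins from 25 to 25.2 Mb lie in the centromere gap described above. The fullest 500 kb, from 27 to 27.5 Mb, held 121 intervals and ranked 10 among 3649 such bins that held an interval. The emptiest 500 kb, from 28 to 28.5 Mb, held 4. By whole Mb, 147 members began from 27 to 28 Mb, 92 from 26 to 27 Mb, 41 from 29 to 30 Mb, 25 from 25 to 26 Mb and 24 from 28 to 29 Mb.

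**Figure D2:**
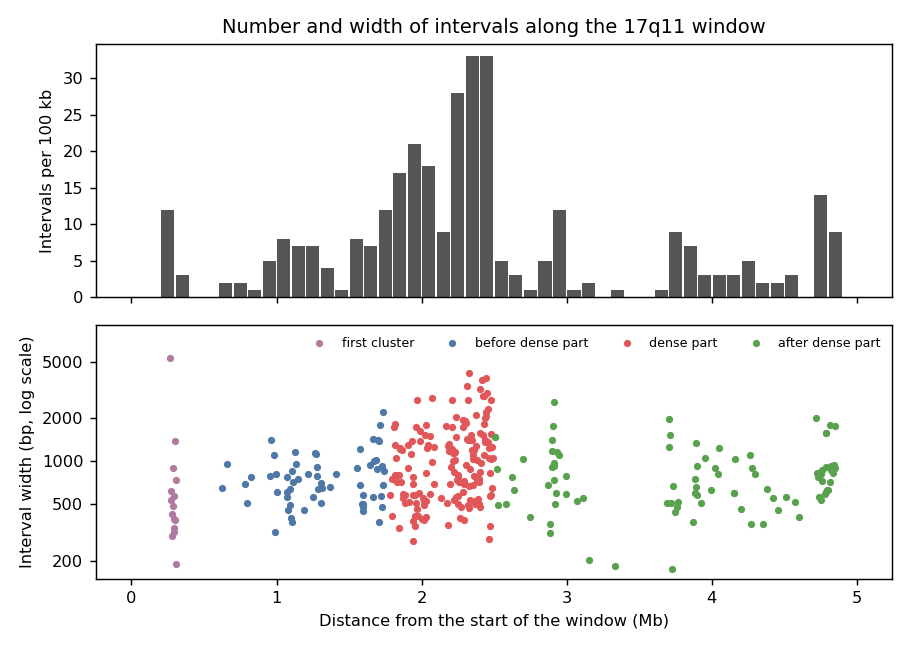
Upper panel, intervals per 100 kb; lower panel, width of each interval in bp on a log scale, coloured by stretch; the x axis is the distance from the start of the window in Mb. The bins at about 2.3 and 2.4 Mb are the fullest with 33 intervals each, and the widest intervals other than the very first lie there too.

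The members fell into 4 stretches, whose limits were set from the clusters described next. A first cluster of 15 intervals at the centromere gap ran from 25263011 to 25310144. Then 61 intervals from 25621263 to 26744457 led up to the dense part. The dense part ran from 26785232 to 27489812, a length of 704.6 kb, and 91 intervals from 27503570 to 29852643 followed it. The dense part took up 14.1% of the block's length and held 162 intervals, which are 49.2% of the members and 57.6% of the covered length. Its density was 229.9 per Mb, against 41.4 per Mb before it and 36.3 per Mb after it, where the ground before runs from the end of the first cluster (1475 kb) and the ground after to 30 Mb (2510 kb). Without the dense part, the block still held 38.9 per Mb, or 5.95 times the comparison ground.

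A cluster here is a run of intervals in which each lies within 12500 bp of the next, and a dense tract is a cluster with at least 20 intervals. The block held 20 clusters of 3 or more, with 85.1% of its members, while 33 members (10.0%) had no neighbour within that distance. In the comparison ground 46.7% of intervals lay in such clusters and 37.6% stood alone. The 4 tracts of the block, all in the dense part, held 143 members (43.5%). The comparison ground had 1 tract, from 36335678 to 36406060, with 23 intervals (5.00%) of a median width of 1425 bp.

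The 4 tracts grew fuller and were more covered toward the far end. The first ran from 26785232 to 26885620 with 20 intervals, a median width of 773.5 bp and 17.7% of its ground covered. The second, from 26902995 to 26989624, held 21 intervals with a median of 602 bp and was 21.6% covered. A cluster of 18 intervals, too few for a tract, followed from 27005779 to 27088815. The third tract, from 27168587 to 27269825, held 29 intervals with a median of 920 bp and was 29.3% covered. The last, from 27282363 to 27489812, held 73 intervals with a median of 1197 bp and was 49.5% covered. Among the 96 tracts of the autosomes and chromosome X, it ranked 11 by number, 8 by median width and 4 by share covered. The other 3 ranked 89, 82 and 49 by number.

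**Figure D3:**
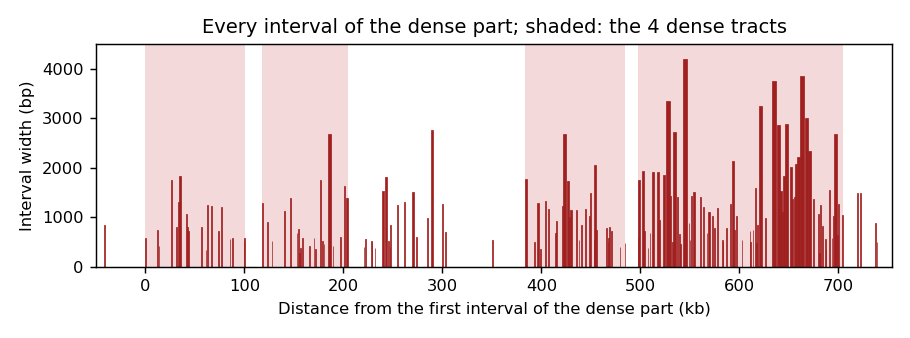
Each bar is 1 interval of the dense part and its surroundings, drawn at its distance from the first interval of the dense part in kb (x axis, bar width to scale) with its width in bp as its height (y axis); pink shading marks the 4 dense tracts. The tallest bars, up to 4189 bp, stand in the tract at the right.

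The number of intervals fell at both edges of the dense part. At the far edge, in the last 100 kb inside it 36 intervals began, and in the next 100 kb beyond it 5. Over 250 kb the counts were 81 inside and 8 beyond, and over 50 kb 20 and 4. At the near edge 20 intervals began in the first 100 kb inside and 11 in the 100 kb before, and over 250 kb the counts were 51 and 24. Over 50 kb they were 10 and 1, so which edge was steeper depended on the distance taken. A fall at either edge is partly built in, since the dense part begins and ends with a tract.

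The members were 784 bp wide in the median, with quartiles of 555 and 1224 bp. In the comparison ground the median was 603.5 bp, with quartiles of 431.8 and 883 bp, a ratio of medians of 1.30. The median of the autosomes and chromosome X was 586 bp, and 226 members (68.7%) exceeded it, as did 52.4% of the comparison ground. Intervals under 500 bp were 16.7% of members and 35.4% of the comparison ground. The quartile ranges overlapped, and the widths of the block (176 to 5271 bp) lay within the range of the comparison ground (81 to 14809 bp). The block and the left-out window from 45 to 50 Mb, with a median of 799 bp, were nearly alike in width.

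Wide intervals sat in the dense part. The median was 958.5 bp there, 719 bp before it, 729 bp after it and 484 bp in the first cluster. The stretches before and after lay 1.20 times above the comparison ground in their joint median of 725.5 bp, whereas the first cluster lay below it. Of 23 members of 2 kb or more, 19 were in the dense part and 15 of those in the last tract. Intervals this wide were 6.99% of members and 4.57% of the comparison ground. In the dense part they were 11.7%, but among the members outside it 2.4%, below the comparison ground.

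**Figure D4:**
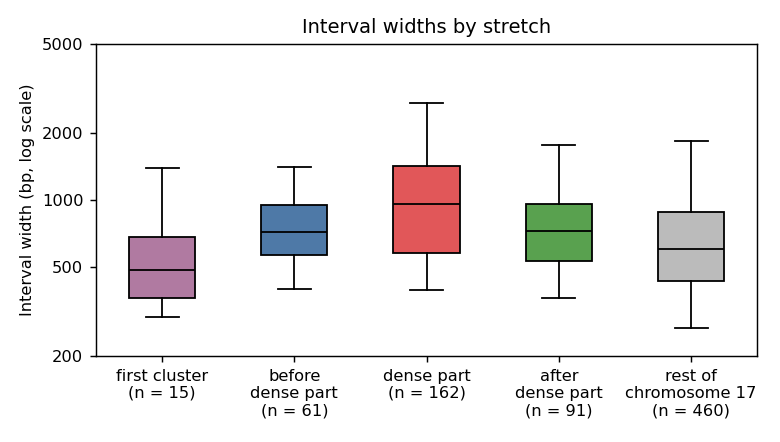
Interval width in bp on a log scale for the 4 stretches of the 17q11 window and the comparison ground; boxes show median and quartiles, and whiskers reach the outermost interval within the 5th to 95th percentile. The dense part has the highest median, 958.5 bp, and the first cluster the lowest, 484 bp.

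The widest member of all was the first one, next to the centromere gap, at 5271 bp (rank 49 by width in the list). The other 9 of the 10 widest lay in the dense part, and 8 of them in its last tract. The widest there ran from 27328528 to 27332717 (4189 bp). It was followed by 27446912 to 27450762 (3850 bp), 27418631 to 27422379 (3748 bp), 27311433 to 27314785 (3352 bp) and 27405040 to 27408278 (3238 bp). The next were 27451276 to 27454290 (3014 bp), 27431610 to 27434494 (2884 bp) and 27423335 to 27426207 (2872 bp). The tenth, 27073458 to 27076226 (2768 bp), lay in the cluster of 18. The narrowest member, 28722804 to 28722980, was 176 bp wide and lay after the dense part.

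Covered ground was highest in a short run of the last tract. The 50 kb with the most covered ground began at 27418631, held 18 intervals of a median 1925 bp and was 72.5% covered. The widest member of the block (5271 bp) and the widest of the dense part (4189 bp) lay outside it. Cut into 4 equal lengths of 51.9 kb, the last tract was 54.6%, 34.5%, 49.4% and 59.5% covered in order, so a less covered section separated the fuller ends.

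Neighbouring members were close. The median gap was 2688 bp (quartiles 1011 and 9207 bp), against 15150 bp in the comparison ground (2438 and 99700 bp). It was 1563 bp in the dense part and 1052 bp in the last tract. Gaps of 100 bp or less made up 27 of 328 (8.23%), of which 22 were in the dense part, against 18 of 457 (3.94%) in the comparison ground. A pair of gaps measured 1 bp, after 26696312 and after 27234033. The widest gap ran from 28332997 to 28690733 (357.7 kb), beginning in the emptiest 500 kb and ending beyond it.

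Joining close neighbours lowered the count most in the dense part. Joining intervals no more than 100 bp apart left 302 of the 329, and no more than 1 kb apart left 247 (24.9% fewer), against 14.6% fewer in the comparison ground. In the dense part joining at 1 kb left 105 of 162. The longest joined stretch, from 27436015 to 27457306, took in 8 intervals over 21291 bp and ranked 12 among the 17823 joined stretches of the autosomes and chromosome X. The next, from 27418631 to 27434494, took in 6 intervals over 15863 bp and ranked 19. Both lay in the last tract, 1521 bp apart.

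Median widths in and out of the block were close at 5 or more neighbours and further apart at fewer. Neighbours were counted as other intervals with a centre within 50 kb, of which the median member had 14 and the median interval of the comparison ground 3. With 15 or more, 160 members had a median width of 958.5 bp (quartiles 586.2 and 1441 bp) and 45 intervals of the comparison ground 972 bp (625 and 1535 bp). With 5 to 14 the medians were 729 bp for 129 members and 715 bp for 166 others. With 0 to 4 they were 630.5 bp for 40 members and 524 bp for 249 others, with quartiles of 511.8 and 812.2 bp and of 398 and 700 bp. The share of intervals with 15 or more neighbours was 48.6% in the block and 9.78% in the comparison ground, which follows from how the block was chosen. What part crowding has in the block's wider median was not tested. Intervals that are neighbours share their surroundings and are not independent: the 160 members fell into 8 clusters and the 45 others into 4.

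**Figure D5:**
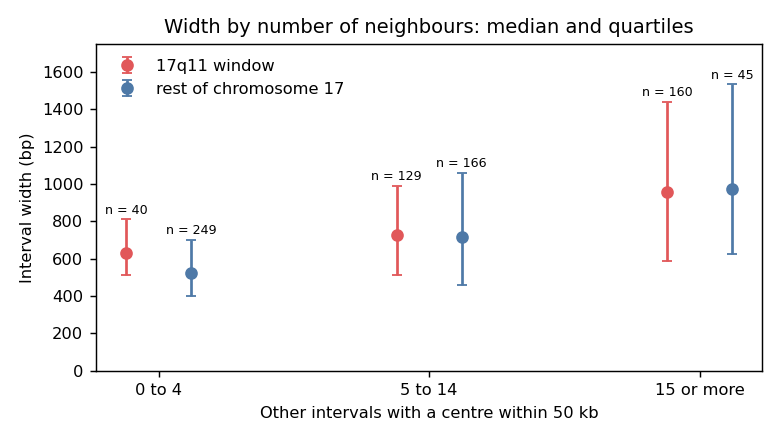
Median interval width in bp (points) with quartiles (bars) by the number of other intervals within 50 kb, for the 17q11 window (red) and the comparison ground (blue), with the number of intervals above each bar. At 15 or more neighbours the medians are 958.5 and 972 bp, and both rise from left to right.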

How the data were processed

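The deposited list has 3 columns, chromosome, start and end, for 21308 intervals (1 blank line, 0 duplicated and 0 overlapping); its unit is positions in bp, and no score accompanies them. The authors used SEACR and HOMER with build hg19, per the submitters' processing notes; for both tools the version and settings, and the overlap that made a peak common, are not given in the sources used. Width is end minus start, and whether starts count from 0 or 1 is not stated. Ground lengths run from the first to the last interval of a chromosome, less the 5 Mb windows left out. Gaps across left-out windows were not counted. Merging and linking were tested on simulated data. RefSeq tables (GRCh38.p14) gave gene order, promoters and microRNAs. Genes were ordered by their start in those tables, and no interval was joined to their coordinates. Python 3.11.15, numpy 2.4.6, pandas 2.3.3 and matplotlib 3.10.9 were used.

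The block, lists, stretches and limits were chosen with earlier results of these data known. The intervals named are the 10 widest, the first and last members, the nearest outside, the tracts, and the closest and widest gaps; the narrowest member and the joined stretches were added after their values were seen, as were the gene run from SLC13A2 to MYO18A and its promoter letters.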

Additional observations from a re-analysis of the deposited data

How the results depend on the processing

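Of 40 recomputed values, 25 kept their direction and stayed within 1.5 times the reported one, 13 moved further and 2 changed direction. The density ratio was 6.65 and the ratio of covered ground 7.63 (12.6 as reported) with 45 to 50 Mb kept in the comparison, and 2.72 and 2.98 against 30 to 40 Mb alone, which was chosen after seeing the data. Tracts, 4 as reported, numbered 2 with a linking distance of 5 kb, 10 with a limit of 10 intervals, 1 with a limit of 50 and 1 after joining at 1 kb, and held 19.5%, 70.5%, 22.2% and 15.8% of members. The longest run of bins with 100 or more starts per Mb was 400 kb in 100 kb bins, from 26.7 to 27.1 Mb. It was 350 kb in 50 kb bins, from 27.15 to 27.5 Mb, and 750 kb in 250 kb bins, from 26.75 to 27.5 Mb. The runs in 100 kb and 50 kb bins share no ground, so the place of the run depended on bin size. In 100 kb bins it left out the fullest bins, because the bin from 27.1 to 27.2 Mb held 9. The width ratio lay between 1.12 and 1.497 under its 10 alternatives. At 15 or more neighbours within 50 kb it was 0.986, and under limits chosen after seeing the data it was 0.836 with 30 or more within 100 kb but turned to 1.049 with 8 or more within 25 kb and 1.018 with 10 or more within 50 kb. The causes were not tested. Motifs under intervals, promoters at intervals and leaving out a library could not be run without an hg19 sequence, an hg19 annotation and values per library. Since depth is unknown, ground without an interval is not shown to lack GATA4.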
